A study of Mus musculus with 9 samples.

Results

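The genes described here are 36 genes of the cell cycle, of which 16 act in DNA replication during S phase and 20 act in mitosis. They were chosen by function and followed across 9 Clariom S arrays of mouse fetal thymic lobes. Each gene was read through its transcript cluster, the group of probes that the array reports as 1 transcript, taking the cluster of highest mean where a symbol had several. A cluster was found for 34 of the 36 genes, 15 of DNA replication and 19 of mitosis, among 19505 symbols and 22206 clusters in the whole series, and each of the 34 had a single cluster. Mcm7 and Ccnb1 were not analysed here.

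Total RNA had been taken from thymic lobes of C57BL/6 embryos at e13.5, an early stage of thymus growth, with 3 arrays for each of 3 genotypes. The first was wild type. The second, Foxn1933/1089 (Foxn1 mutants below), carried 1 mutant allele on each copy of Foxn1, the transcription factor gene that thymic epithelium needs to mature. The third was homozygous for neo2, an allele known to lower the expression of Tbx1, a patterning gene of the pharyngeal region (Tbx1neo2/neo2, Tbx1 mutants below). No treatment or further allele is named for any group. What the numbers 933 and 1089 stand for, whether lobes were pooled and whether the arrays of a genotype came from separate embryos are not stated in the sources at hand. The p-values therefore measure only the spread between these samples, which may be technical.

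A cell that divides first copies its DNA and then separates the copies. Replication begins when Cdc6 helps to load the MCM helicase on DNA, Cdc45 and the GINS complex activate it, and the clamp Pcna holds the polymerases to the template, while ribonucleotide reductase and thymidylate synthase supply the nucleotides. Mitosis is driven by Cdk1 with its cyclins and by the Aurora and Polo kinases, and is held back by the spindle checkpoint until the anaphase-promoting complex, activated by Cdc20, lets the chromatids part. Many genes of the first kind are known targets of E2F factors, and many of the second kind are known to be controlled through a CHR element and CCAAT boxes, the latter bound by NF-Y. The early fetal thymus is known as a rapidly growing organ in which both epithelial cells and incoming lymphoid progenitors divide.

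The letters of the promoters are given first, as a description of the 2 kinds of member. RefSeq promoters of build GRCm38.p6, each a window of 300 bases that ends 50 bases after the transcription start, were listed for 27 of the 34 measured members, 12 of replication and 15 of mitosis. Both strands were searched for an E2F motif (TTTGGCGC, TTTCCCGC, TTTCGCGC or TTTGCCGC), a CHR element (TTTGAA or TTCGAA) and the letters CCAAT, and matches were allowed to overlap. Upstream bases of 4 members are shown, Mcm5 and Mcm6 of the helicase as examples with E2F letters and Cdk1 and Cdc20 of mitosis as examples with CHR and CCAAT letters. Each runs 5′ to 3′ on the strand of the gene and ends at the base before the start site. Capitals mark every match, so that ATTGG is CCAAT on the opposite strand, and adjoining matches form 1 run of capitals.
Mcm5: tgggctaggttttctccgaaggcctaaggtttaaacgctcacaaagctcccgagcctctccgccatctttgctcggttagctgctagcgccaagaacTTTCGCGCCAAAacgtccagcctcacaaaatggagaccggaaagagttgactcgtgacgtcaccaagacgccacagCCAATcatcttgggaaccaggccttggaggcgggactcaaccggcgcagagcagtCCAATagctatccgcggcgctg
Mcm6: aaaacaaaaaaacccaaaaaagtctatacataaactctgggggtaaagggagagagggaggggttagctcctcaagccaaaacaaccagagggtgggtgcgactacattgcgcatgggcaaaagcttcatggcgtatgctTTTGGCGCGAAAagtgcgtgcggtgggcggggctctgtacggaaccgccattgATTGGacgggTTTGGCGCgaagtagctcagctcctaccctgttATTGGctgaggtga
Cdk1: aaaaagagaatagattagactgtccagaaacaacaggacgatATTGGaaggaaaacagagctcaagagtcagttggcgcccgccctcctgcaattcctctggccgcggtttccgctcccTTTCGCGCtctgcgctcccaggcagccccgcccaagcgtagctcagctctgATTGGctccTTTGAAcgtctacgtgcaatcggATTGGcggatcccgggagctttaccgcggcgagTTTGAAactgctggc
Cdc20: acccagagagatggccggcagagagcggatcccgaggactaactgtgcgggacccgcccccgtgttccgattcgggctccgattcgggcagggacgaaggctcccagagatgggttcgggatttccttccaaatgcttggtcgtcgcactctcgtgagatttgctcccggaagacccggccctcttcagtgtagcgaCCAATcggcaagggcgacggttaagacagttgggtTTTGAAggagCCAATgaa

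The Mcm5 stretch lies at chr8:75109259-75109508 on the plus strand. The others lie on the minus strand, at chr1:128359706-128359955 for Mcm6, chr10:69352913-69353162 for Cdk1 and chr4:118437344-118437593 for Cdc20. In Mcm5 and Mcm6 a forward and a reverse E2F match overlap, beginning at positions -153 and -149 in Mcm5 and -110 and -106 in Mcm6, where -1 is the base before the start. Mcm6 has a further E2F match at -47. Cdk1 has CHR letters at -71 and -15 and an E2F match at -131, and Cdc20 has CHR letters at -18, between CCAAT letters at -53 and -8.

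Over all members with a promoter, an E2F match stood in 4 of 12 replication promoters (33.3%) and 1 of 15 mitotic ones (6.67%), against 2.26% of the 32851 promoters in the table. CHR letters stood in 2 of 12 replication promoters (16.7%) and 12 of 15 mitotic ones (80%), against 19.2% of all. CCAAT stood in 66.7% of the replication promoters, 86.7% of the mitotic ones and 37.4% of all promoters. CHR and CCAAT letters together stood in 12 of 15 mitotic promoters and in 7.52% of all. Further genes of both kinds, which are no members, had E2F letters in 36.4% of 33 replication promoters and 6.25% of 32 mitotic ones, and CHR letters in 21.2% and 75%. Their CCAAT shares, 42.4% and 68.8%, were below those of the members, and that of the replication genes was near the share of all promoters. A match describes the letters only.

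**Figure D1:**
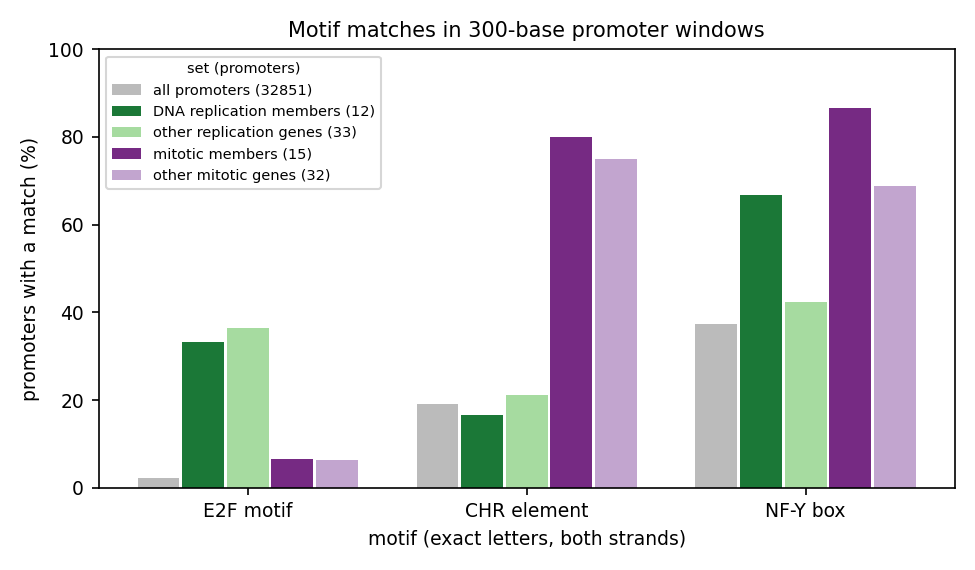
Share of 300-base promoter windows (percent) that hold each motif on either strand, for all RefSeq promoters in the table, the members and further genes of the same kind, with the number of promoters in brackets. The 15 mitotic members reach 80% for CHR letters against 16.7% of the 12 replication members, and for E2F letters the order is turned, 6.67% against 33.3%.

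The arrays as a whole differed in 1 respect that touches every result below. Prss16, which encodes a protease of cortical epithelial cells, read 4.24 on wild type array 1 and 4.45 on Foxn1 mutant array 2, against 13.87 to 14.43 on the other 7 arrays (log2 values, as all levels here). Psmb11, the thymic proteasome subunit, read 3.40 and 3.36 there and 9.52 to 10.66 elsewhere. These 2 arrays were the lowest for 12 of 13 measured leukocyte and T lineage markers (list mean 5.31 and 5.27, against 8.04 to 9.69) and for 11 of 13 markers of thymic epithelium (8.49 and 8.67, against 11.24 to 11.91). Wild type array 1 was the highest for all 9 neuronal and glial markers (list mean 11.32, against 5.47 to 5.96). Foxn1 mutant array 2 was the highest for 9 of 11 mesenchymal markers (list mean 11.83, against 9.89 to 11.10). For 1 of the 11 it read below all of the other 7 arrays. Foxn1 itself read 7.78, 10.35 and 10.01 in wild type, 9.02, 8.73 and 9.67 in Foxn1 mutants and 8.88, 10.04 and 9.70 in Tbx1 mutants. Tbx1 read 5.85, 4.25 and 4.54 in wild type, 4.07, 4.83 and 4.61 in Foxn1 mutants and 5.38, 4.80 and 5.30 in Tbx1 mutants. The Tbx1 mutant arrays thus read above wild type arrays 2 and 3 and below wild type array 1. All these levels were near the negative-control medians of 4.27 to 4.94. Whether either gene's probes lie in the altered part is not given. The Y-linked gene Uty, chosen after its values were seen, read 7.56 to 8.84 on the wild type arrays. It read 8.47 on Tbx1 mutant array 1 but 2.47 to 3.71 on all other mutant arrays. Sex and the difference between Foxn1 mutants and wild type therefore cannot be told apart. The Tbx1 mutants held arrays of both kinds, so sex was uneven in both comparisons with them too. This remained so without wild type array 1 and Foxn1 mutant array 2. In lobes measured whole, fewer cells of a type and less RNA per cell cannot be told apart either.

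Most of the members were lowest on the same 2 arrays. Every member but E2f1 read above the negative-control median on all 9 arrays, and E2f1 did so on 8. For 23 of the 34 members (67.6%) the lowest levels of all were those of wild type array 1 and Foxn1 mutant array 2, against 12.1% of all clusters and 20.4% of clusters with a mean above the median of cluster means. The share was alike in the 2 groups, 10 of 15 replication members and 13 of 19 mitotic members. It was smaller in further genes of the same kinds, 12 of 32 replication genes (37.5%) and 8 of 34 mitotic genes (23.5%). On each of these arrays 28 members (82.4%) read below all 7 others, against 24.3% of all clusters on wild type array 1 and 19.6% on Foxn1 mutant array 2. Among clusters with a mean above the median of cluster means these shares were 36.4% and 27.7%. Set against the median of the other 7 arrays, the median member was at -0.64 on the log2 scale on each. The median of all clusters was at -0.03 and 0.01, and that of the clusters of higher mean at -0.16 and -0.02. The leukocyte markers were at -3.05 and -4.12 and the epithelial markers at -2.29 and -2.01 by the same measure, and their part in the levels of the cell cycle genes was not tested.

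**Figure D2:**
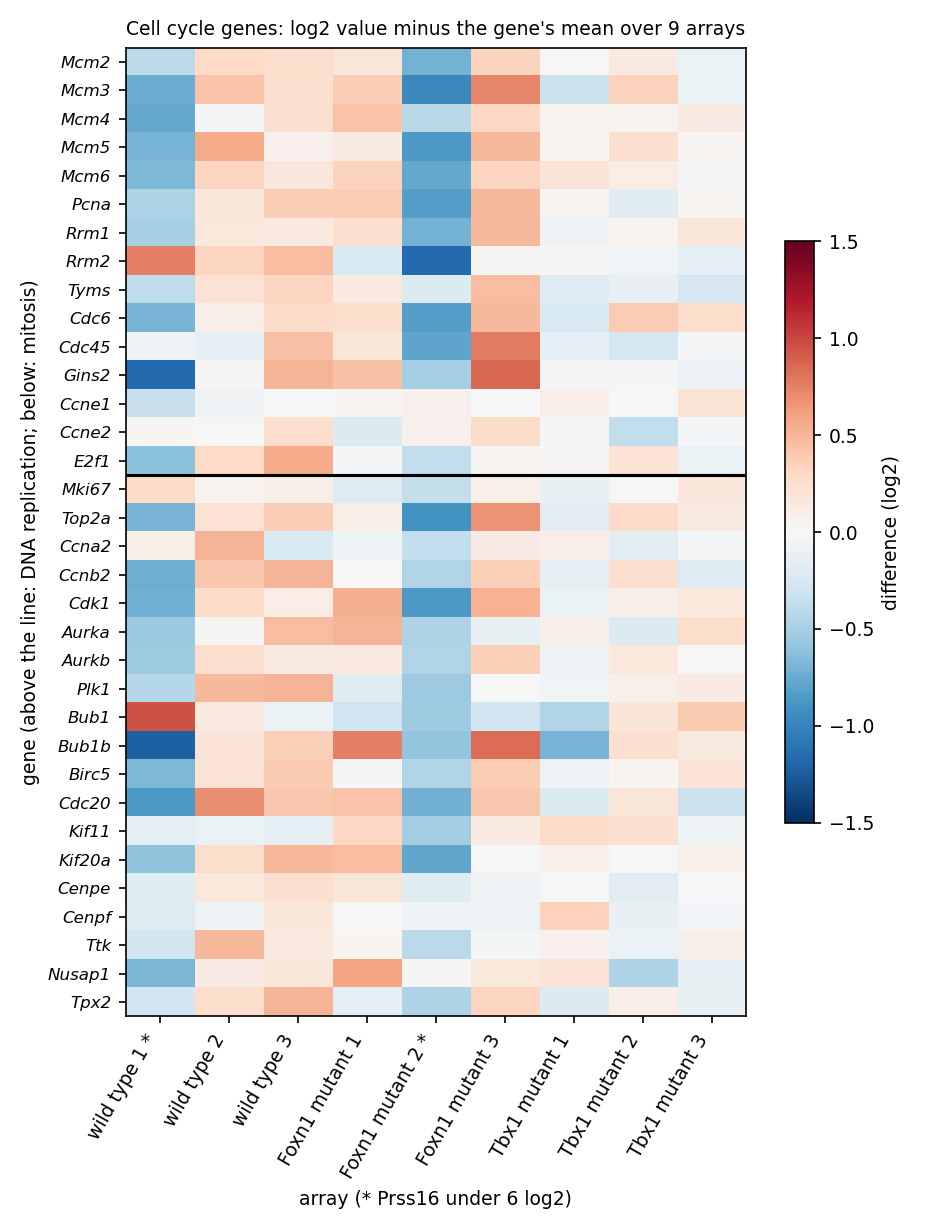
Level of each of the 34 members on each of 9 arrays, as the log2 value minus the gene's own mean over the arrays (blue lower, red higher), with the 15 replication members above the line and the 19 mitotic members below. The columns of wild type array 1 and Foxn1 mutant array 2 are blue for most genes, while Rrm2, Bub1 and Mki67 are red on wild type array 1.

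The MCM subunits, which form the ring that unwinds DNA, had like profiles across arrays. Mcm6 read 12.40, 13.39 and 13.24 in wild type, 13.40, 12.30 and 13.39 in Foxn1 mutants and 13.27, 13.18 and 13.05 in Tbx1 mutants. Mcm3 read 11.40, 12.58 and 12.39 in wild type, 12.52, 11.17 and 12.88 in Foxn1 mutants and 11.82, 12.49 and 12.04 in Tbx1 mutants. In both genes the low value of wild type and the low value of the Foxn1 mutants were those of the 2 Prss16-poor arrays, and the 3 genotypes overlapped. The same held for Mcm2, Mcm4 and Mcm5, whose levels minus the median of the other 7 arrays were -0.57, -0.89 and -0.82 on wild type array 1 and -0.89, -0.54 and -0.99 on Foxn1 mutant array 2. Without the 2 arrays the SD of Mcm6 over the remaining 7 was 0.13, and that of Mcm3 was 0.35.

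The loading and activation factors were among the most variable members. Gins2, a subunit of the GINS complex, read 8.78, 9.97 and 10.46 in wild type, 10.38, 9.44 and 10.80 in Foxn1 mutants and 9.91, 9.92 and 9.86 in Tbx1 mutants. Its 3 Tbx1 mutant arrays lay within 0.1 of each other while the other genotypes spread over more than 1 log2 unit. Cdc6, the loading factor, was at -0.96 and -1.10 from the median of the other arrays on the 2 Prss16-poor arrays. Cdc45, which travels with the active helicase, was low on Foxn1 mutant array 2 (6.53, against 7.06 to 8.11 on the 7 others) but not on wild type array 1 (7.27). Pcna, the sliding clamp, read 14.32, 14.96 and 15.15 in wild type, 15.17, 13.97 and 15.27 in Foxn1 mutants and 14.83, 14.60 and 14.82 in Tbx1 mutants.

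The genes of nucleotide supply did not follow a single pattern. Rrm1, the large subunit of ribonucleotide reductase, read 12.05 on wild type array 1 and 11.85 on Foxn1 mutant array 2, below the 12.50 to 13.04 of the other 7 arrays. Rrm2, the small subunit, read 9.36, 8.94 and 9.07 in wild type, 8.38, 7.44 and 8.63 in Foxn1 mutants and 8.63, 8.56 and 8.47 in Tbx1 mutants. Wild type array 1 thus held the lowest wild type level of Rrm1 and the highest level of Rrm2 on any array, and all 6 mutant arrays read below all 3 wild type arrays for Rrm2. Tyms, thymidylate synthase, read 12.16 on wild type array 1 and 12.33 on Foxn1 mutant array 2, within reach of the Tbx1 mutants at 12.34, 12.43 and 12.28.

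The E cyclins, which bring cells from G1 into S phase, stood apart from the other replication members. Ccne1 read 13.61, 13.89 and 13.94 in wild type, 13.97, 14.01 and 13.94 in Foxn1 mutants and 14.05, 13.95 and 14.15 in Tbx1 mutants. It was low on wild type array 1 but not on Foxn1 mutant array 2, and its whole range was 0.55. Ccne2 was 0.04 and 0.08 above the median of the other arrays on the 2 Prss16-poor arrays. E2f1, the activator of S phase genes, read between 4.92 and 6.09, close to background.

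**Figure D3:**
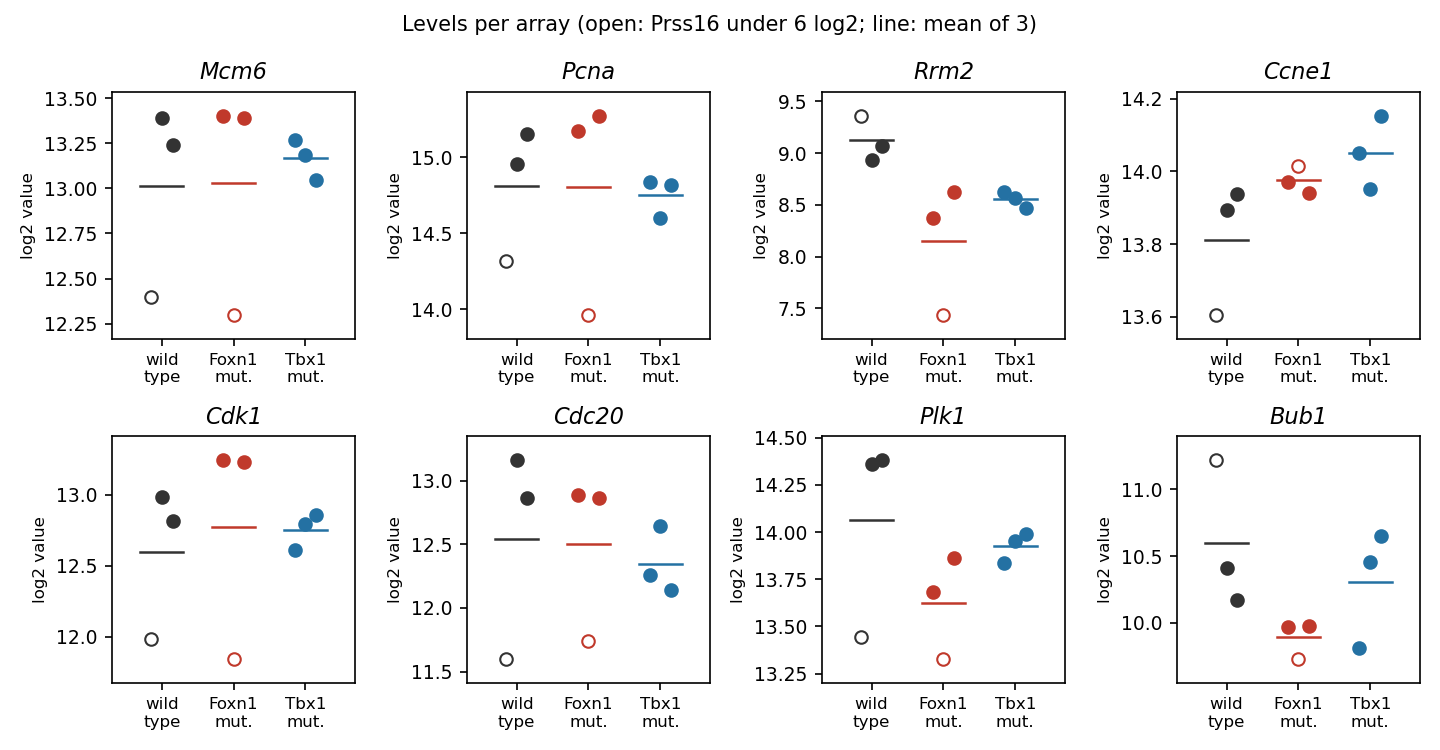
Log2 level of 8 members on each array (points) with the mean of 3 arrays per genotype (line); open points are the 2 arrays on which Prss16 was under 6. In Mcm6, Pcna, Cdk1 and Cdc20 the open points lie at the bottom of their genotypes, whereas in Rrm2 and Bub1 the open wild type point is the highest of all.

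Among the mitotic regulators, Cdk1, the kinase that starts mitosis, read 11.98, 12.99 and 12.82 in wild type, 13.24, 11.84 and 13.23 in Foxn1 mutants and 12.61, 12.79 and 12.86 in Tbx1 mutants. Its cyclins differed from each other. Ccnb2 was at -0.97 and -0.68 from the median of the other 7 arrays on wild type array 1 and Foxn1 mutant array 2. Ccna2, the cyclin of S phase and G2, was at 0.11 on the first and -0.34 on the second. Plk1, the Polo kinase, read 13.44, 14.36 and 14.38 in wild type, 13.68, 13.33 and 13.86 in Foxn1 mutants and 13.83, 13.95 and 13.99 in Tbx1 mutants. For Plk1 the wild type arrays 2 and 3 were above all 7 other arrays, and wild type array 1 was below all mutant arrays but Foxn1 mutant array 2. Aurka and Aurkb, the Aurora kinases of centrosome and chromosome passenger complex, and Birc5, the survivin subunit of that complex, were at -0.86 to -0.55 on both Prss16-poor arrays.

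The spindle checkpoint genes Bub1 and Bub1b went opposite ways on wild type array 1. Bub1, a kinase at unattached kinetochores, read 11.22, 10.41 and 10.17 in wild type, 9.96, 9.73 and 9.97 in Foxn1 mutants and 9.81, 10.46 and 10.65 in Tbx1 mutants. Bub1b, which encodes BubR1, read 7.93, 9.34 and 9.50 in wild type, 9.90, 8.56 and 9.99 in Foxn1 mutants and 8.45, 9.40 and 9.28 in Tbx1 mutants. Wild type array 1 was the highest of 9 for Bub1 and the lowest of 9 for Bub1b, whereas Foxn1 mutant array 2 was low for both. Ttk, the checkpoint kinase Mps1, was nearer the others on these arrays, at -0.34 and -0.47 from their median. Cdc20, the activator of the anaphase-promoting complex, read 11.60, 13.16 and 12.86 in wild type, 12.89, 11.74 and 12.86 in Foxn1 mutants and 12.26, 12.64 and 12.14 in Tbx1 mutants.

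Genes of chromosomes and spindle ranged from strongly low to hardly moved on the 2 arrays. Top2a, the topoisomerase that untangles sister DNA, was at -0.91 and -1.11 from the median of the other arrays, and the kinesin Kif20a was at -0.68 and -0.85. Kif11, the kinesin that pushes spindle poles apart, was at -0.28 and -0.65. Nusap1, which bundles spindle microtubules, was at -0.85 on wild type array 1 and -0.14 on Foxn1 mutant array 2. Tpx2, which activates Aurka at the spindle, was at -0.39 and -0.57. The centromere genes Cenpe, at -0.19 on both, and Cenpf, at -0.14 and -0.02, were the nearest to the other arrays among these. Mki67, the usual marker of cycling cells, read 15.90, 15.66 and 15.69 in wild type, 15.42, 15.25 and 15.68 in Foxn1 mutants and 15.50, 15.61 and 15.78 in Tbx1 mutants. It was highest on wild type array 1, where 28 members read below the 7 arrays with Prss16.

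Replication and mitotic members followed each other from array to array. For each member the mean over the 9 arrays was subtracted, and the differences were averaged over the 15 replication and the 19 mitotic members. The averages were -0.45 and -0.39 on wild type array 1 and -0.60 and -0.48 on Foxn1 mutant array 2, and 0.18 and 0.24 on wild type array 2. On the Tbx1 mutant arrays 1, 2 and 3 they were -0.03, 0.03 and -0.001 for replication and -0.06, 0.03 and 0.04 for mitosis. The average of replication members minus that of mitotic members lay between -0.12 and 0.04 on 8 arrays and was 0.20 on Foxn1 mutant array 3, where the replication average was 0.40 and the mitotic average 0.20. Of the 7 arrays with Prss16, Foxn1 mutant array 3 was the highest for 9 of 15 replication members but for 3 of 19 mitotic ones. Among the 9 were Gins2 (10.80), Cdc45 (8.11) and Mcm3 (12.88). The same array was the highest of the 7 for 3353 of all 22206 clusters. It was so for 10 of 32 further replication genes and 6 of 34 further mitotic genes. These figures are descriptions over genes that share the same RNA samples, and no test was made.

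Over all 9 arrays the median SD of the members was 0.42 for replication and 0.36 for mitosis, and over the 7 arrays it was 0.23 and 0.24. For all clusters these medians were 0.35 and 0.30. The median of 18 measured inhibitors, a list that includes the Cdk inhibitor families and Gadd45a, was not low on the 2 Prss16-poor arrays. It was 0.08 and 0.04 against the others. Single inhibitors differed, and on each of the 2 arrays 5 of 18 (27.8%) read below all 7 others, against 24.3% and 19.6% of all clusters. Further replication genes (32 measured) had medians of -0.40 and -0.65, and further mitotic genes (34 measured) had -0.10 and -0.42.

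**Figure D4:**
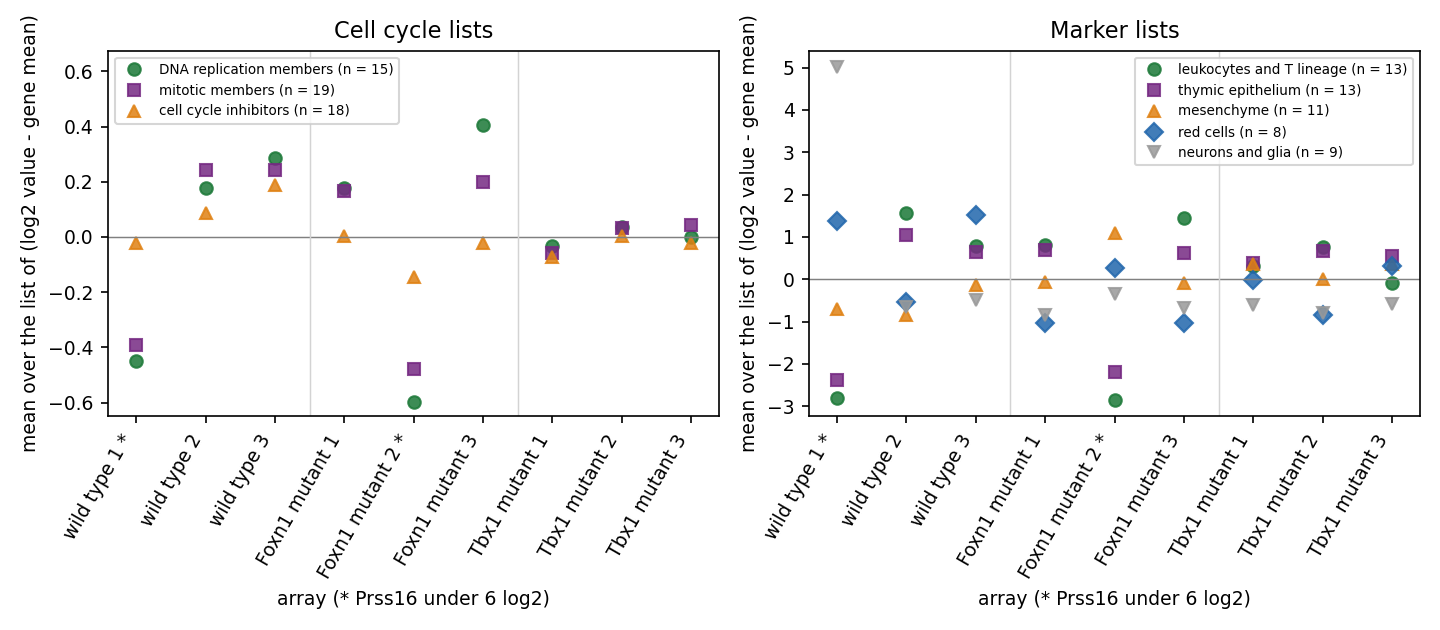
Mean over each list of the log2 value minus the gene's mean over 9 arrays, for cell cycle lists (left) and cell type markers (right; wider scale), 1 point per list and array. Replication and mitotic members are at -0.45 and -0.39 on wild type array 1 and at -0.60 and -0.48 on Foxn1 mutant array 2, where leukocyte and epithelial markers are also lowest.

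Foxn1 mutants were first set against wild type, which asks whether the lobes of these compound heterozygotes differ in cell cycle genes. None of the 34 members passed an adjusted p of 0.05 in limma's test (lowest adjusted p = 1.00), as none of all 22206 clusters did (0%). At an unadjusted p under 0.05 there were 2 members, Rrm2 and Bub1, against 4.04% of all clusters. The median difference, Foxn1 mutants minus wild type, was 0.02 for the replication members (8 higher, 7 lower) and -0.04 for the mitotic members (6 higher, 13 lower), and 0.02 for all clusters. The arrays of the genotypes did not overlap for 1 member that was higher, Ccne1 (4.86% of all clusters were higher in this way), and for 2 that were lower, Rrm2 and Bub1 (3.43% of all clusters). For Ccne1 the nearest arrays were almost level, at 13.942 in Foxn1 mutants and 13.9369 in wild type.

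Rrm2 was 8.15 ± 0.63 in Foxn1 mutants and 9.12 ± 0.22 in wild type (SD, n = 3), a difference of -0.98 ± 0.30 (SE; limma adjusted p = 1.00). Without wild type array 1 and Foxn1 mutant array 2 it was -0.50. The sample titles carry 3 numeric codes, called A, B and C here, whose meaning the labels do not give; within code A, with a single array of each genotype, the Rrm2 difference was -1.64 and within code B, with 1 wild type and 2 mutant arrays, it was -0.43. Bub1 was 9.89 ± 0.14 against 10.60 ± 0.55 (SD, n = 3), a difference of -0.71 ± 0.32 (SE), which was -0.32 without the 2 arrays and -0.44 within both codes A and B. Plk1 differed by -0.44 ± 0.28 (SE) over all arrays and by -0.60 without the 2. Gins2 and Mcm4 stood on the other side, at 0.48 ± 0.45 and 0.29 ± 0.31 (SE), within their spread.

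Without the 2 Prss16-poor arrays, which leaves 2 arrays of each of these genotypes and 3 Tbx1 mutants for the spread, again 0 members and 0% of all clusters were called. There were 2 members at an unadjusted p under 0.05, Plk1 and Rrm2, against 5.62% of clusters. The median difference was 0.08 for replication and -0.11 for mitosis. The genotypes did not overlap for 7 members that were higher and 6 that were lower, against 17.8% and 17.1% of all clusters. The median of all 34 members was -0.93 within code A, where the mutant array is the Prss16-poor one, and 0.01 within code B.

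**Figure D5:**
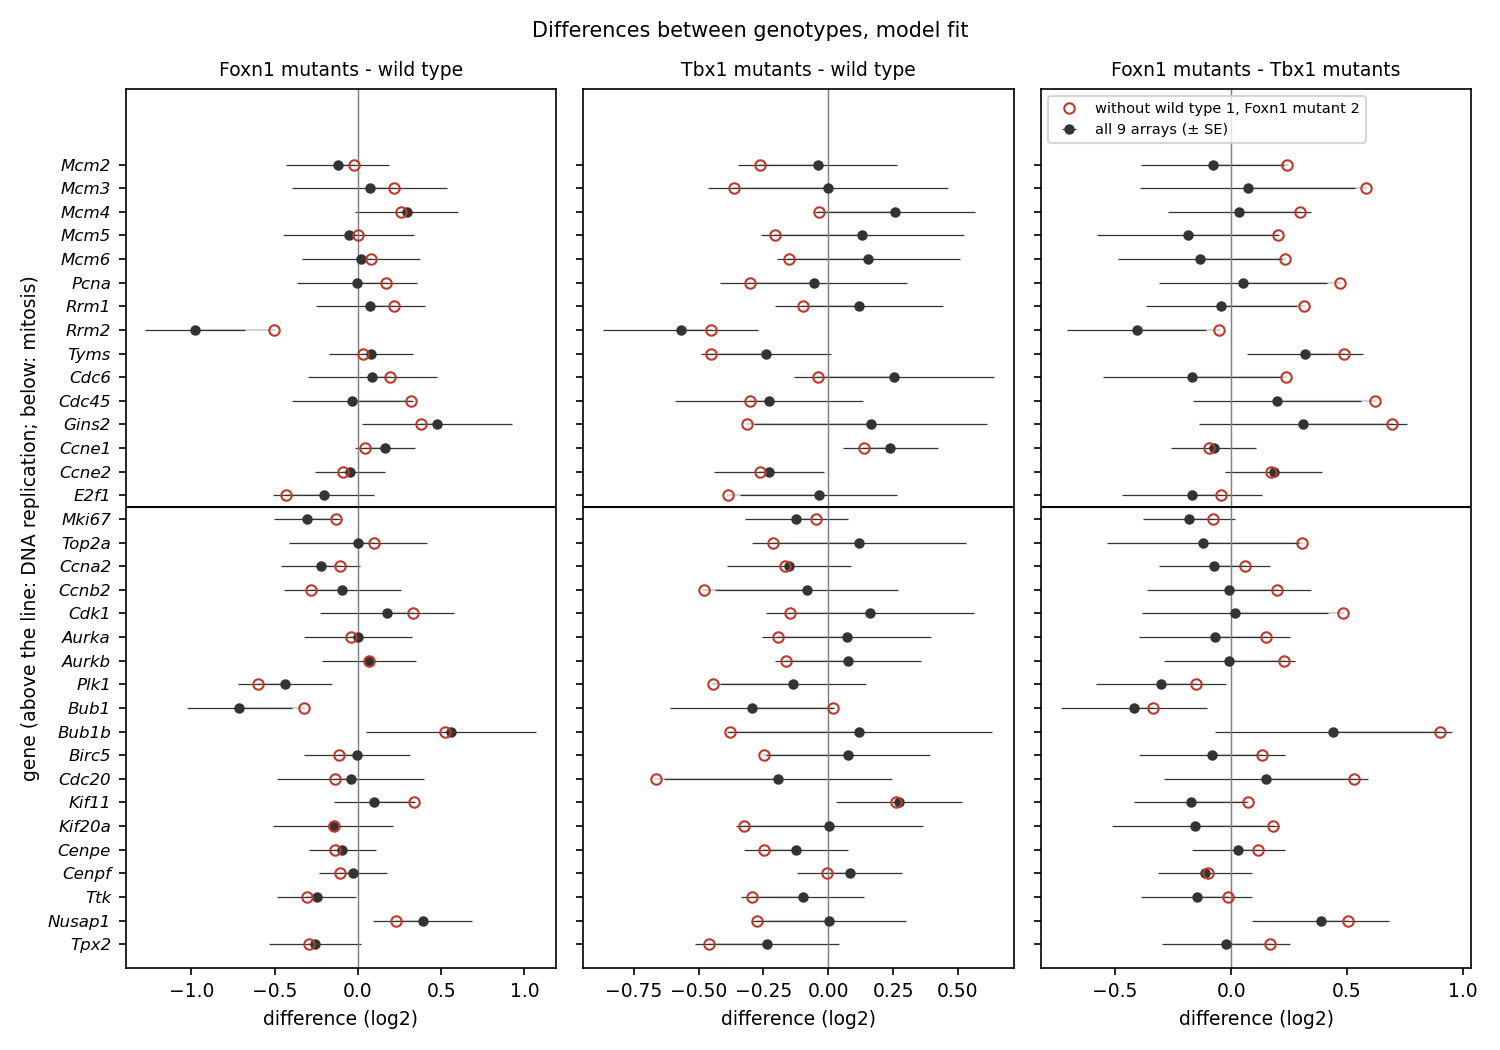
Log2 difference between genotypes for each member, from the fit to all 9 arrays (filled points, bars are SE) and without wild type array 1 and Foxn1 mutant array 2 (open points). For Tbx1 mutants minus wild type (middle; the x axes differ in scale) 17 members lie on each side of 0 with all arrays and 31 of 34 lie below 0 without the 2.

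In the Tbx1 mutants against wild type the members as a group stood level with all arrays in and below wild type without the poor wild type array. None of the 34 was called by limma over all 9 arrays (lowest adjusted p = 1.00; 0.0135% of clusters were called), and 0 had an unadjusted p under 0.05, against 3.79% of clusters. The median difference, Tbx1 mutants minus wild type, was -0.001 for replication and 0.004 for mitosis, with 17 members higher and 17 lower. Rrm2, at 8.55 ± 0.08 against 9.12 ± 0.22 (SD, n = 3), had the lowest p of the members, with a difference of -0.57 ± 0.30 (SE). Its arrays did not overlap, nor did those of Ccne2, which was at -0.23 in Tbx1 mutants, and 4.27% of all clusters were lower in this way. Ccne1 at 0.24 ± 0.18 and Kif11 at 0.27 ± 0.24 (SE) were higher without overlap, as 5.18% of all clusters were. The nearest Tbx1 mutant and wild type arrays were almost level for Ccne1 (13.9505 and 13.9369) and Ccne2 (10.7797 and 10.7865).

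Once wild type array 1 was left out (with Foxn1 mutant array 2, which enters this comparison through the spread alone), 31 of 34 members were lower in Tbx1 mutants. The median was -0.26 for replication (14 of 15 lower) and -0.25 for mitosis (17 of 19 lower). It was -0.01 for all clusters (11431 of 22206 lower). For clusters with a mean above the median of cluster means it was -0.08 (6692 of 11103 lower). Further cell cycle genes were mostly lower too, 27 of 32 of replication (median -0.18) and 25 of 34 of mitosis (-0.15). So were 9 of 10 genes of G1 (-0.33) and 15 of 18 inhibitors (-0.08). For 15 members (44.1%) the 3 Tbx1 mutant arrays lay below both wild type arrays, against 13.6% of all clusters, and for 2 members, Ccne1 and Kif11, above both, against 11.6%. Among clusters with a mean above the median of cluster means these shares were 19.3% and 10.3%. Below both wild type arrays lay 44.1% of the further mitotic genes and 21.9% of the further replication genes. Of the members, 0 were called by limma (lowest adjusted p = 0.491, with 0.00901% of clusters called). At an unadjusted p under 0.05 there were 2 members, against 8.07% of clusters. These were Cdc20, at -0.66 ± 0.23 (SE), and Plk1, at -0.44 ± 0.19 (SE). Within code A, which holds no Prss16-poor array of these genotypes, the median of the members was -0.34 and 6 of 34 were higher; within code C, whose wild type array is array 1, it was 0.56 and 28 of 34 were higher. Without the 2 arrays the leukocyte and T lineage markers moved in the same direction (median -0.90, 12 of 13 lower), as did those of thymic epithelium (-0.38, 11 of 13 lower) and red cells (-0.60, 6 of 8 lower). The markers of mesenchyme (0.81, 10 of 11 higher) and endothelium (0.33, 7 of 8 higher) moved in the other. Those of parathyroid (-6.20, 3 of 3 lower) and of skeletal and heart muscle (-0.98, 8 of 10 lower) were lower too. Neurons and glia were divided (-0.23, 5 of 9 lower). The part of these cell types in the result was not tested.

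Foxn1 mutants and Tbx1 mutants were also set against each other. Over all 9 arrays limma called 0 members and 0% of all clusters, and 0 members had an unadjusted p under 0.05, against 2.98% of clusters. The median difference, Foxn1 mutants minus Tbx1 mutants, was -0.04 for replication and -0.07 for mitosis, with 12 members higher and 22 lower. No member was free of overlap in either direction, against 5.00% of clusters higher and 3.91% lower. The members of lowest p were Rrm2 at -0.41 ± 0.30, Bub1 at -0.42 ± 0.32, Nusap1 at 0.39 ± 0.30 and Tyms at 0.32 ± 0.25 (SE). With the title code as a fixed block the sign turned for Bub1 (0.04), Nusap1 (-0.17) and Tyms (-0.05).

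Without Foxn1 mutant array 2 (and wild type array 1, which enters through the spread) the median was 0.20. In Foxn1 mutants 26 of 34 members were higher, as were 51.3% of all clusters. Of the further cell cycle genes, 24 of 32 of replication (median 0.15) and 19 of 34 of mitosis (0.02) were higher. So were 9 of 10 genes of G1 (0.14) and 10 of 18 inhibitors (0.04). Both remaining Foxn1 mutant arrays lay above all 3 Tbx1 mutant arrays for 12 members (35.3%), against 14.7% of clusters, and below them for 0, against 12.4%. Among clusters with a mean above the median of cluster means these shares were 18.7% and 13.7%. Of the 12, 9 were among the 15 replication members and 3 among the 19 mitotic members. The share above all 3 Tbx1 mutant arrays was 25% of the further replication genes and 23.5% of the further mitotic genes. At an unadjusted p under 0.05 there were 7 members, against 8.53% of clusters, and limma called 0 (lowest adjusted p = 0.470; 0.00901% of clusters were called). The 7 were Bub1b at 0.90 ± 0.30, Gins2 at 0.70 ± 0.24 and Cdc45 at 0.62 ± 0.26 (SE), with Cdc20, Tyms, Cdk1 and Pcna at 0.47 to 0.53. Both remaining Foxn1 mutant arrays carried code B, and the Tbx1 mutant arrays carried codes A and C. Without the 2 arrays no code thus holds both genotypes, and a direct comparison of them cannot tell genotype from code. They meet only through wild type array 2 in code B and wild type array 3 in code A. The members' median was 0.01 for Foxn1 mutants minus wild type in code B. It was -0.34 for Tbx1 mutants minus wild type in code A. With all arrays, Foxn1 mutants minus Tbx1 mutants had a median of -0.47 within code A, with 2 of 34 members higher. The Foxn1 mutant array of that code is the Prss16-poor one. Without the 2 arrays the leukocyte and T lineage markers again moved with the members (median 0.75, 12 of 13 higher), while those of mesenchyme (-0.24, 10 of 11 lower), endothelium (-0.43, 7 of 8 lower) and red cells (-0.78, 7 of 8 lower) moved the other way. Parathyroid was at 6.07, with 3 of 3 higher, and skeletal and heart muscle at -0.38, with 7 of 10 lower. Neurons and glia were at -0.06, with 6 of 9 lower. Thymic epithelium was at 0.13, with 7 of 13 higher, and the part of these cell types was not tested. Both comparisons with wild type share its arrays, and both comparisons with the Tbx1 mutants share theirs, so the 3 sets of differences are not independent of one another.

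A moderated F test for any difference among the 3 genotypes gave 1 member at an unadjusted p under 0.05, Rrm2, against 3.22% of clusters. It called 0 members (lowest adjusted p = 1.00), and 0.00901% of all clusters.

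Further genes of the cell cycle, drawn from lists chosen by function, gave the same count of 0 calls in each comparison. In Foxn1 mutants minus wild type, the 32 further replication genes had a median of -0.11 (-0.05 without the 2 Prss16-poor arrays), with 1 at an unadjusted p under 0.05, Pole, the catalytic subunit of polymerase epsilon, at -0.70 ± 0.27 (SE). The 34 further mitotic genes had a median of -0.16 with 28 lower and 5 at an unadjusted p under 0.05, where 4.04% of all clusters were. Without the 2 arrays their median was -0.09, with 21 lower and 3 at an unadjusted p under 0.05, against 5.62% of clusters. Among the 5 were Espl1, the separase that cuts cohesin, at -0.68 ± 0.23, and Cdc25b, a phosphatase that activates Cdk1, at -0.54 ± 0.19 (SE). Of 10 genes of G1, 2 had an unadjusted p under 0.05 (0 without the 2 arrays): Ccnd2, a D cyclin, at 0.82 ± 0.26 and Mycn at -0.96 ± 0.41 (SE). Of the 18 inhibitors, 2 had an unadjusted p under 0.05, Gadd45a and the Cdk inhibitor gene Cdkn2b, the latter at 0.43 ± 0.19 (SE) and read between 4.10 and 4.86 on all arrays, near background.

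In Tbx1 mutants minus wild type, 0 of the 32 further replication genes and 1 of the 34 further mitotic genes, Cdc25b, had an unadjusted p under 0.05, against 3.79% of all clusters. Of the 10 genes of G1 there were 3, E2f2, Ccnd2 at 0.63 ± 0.26 and Mycn at -0.94 ± 0.41 (SE), and of the 18 inhibitors there were 2, Gadd45a and Cdkn1b. Without the 2 arrays the count of further mitotic genes was 4, against 8.07% of clusters. Between Foxn1 mutants and Tbx1 mutants, where 2.98% of clusters had an unadjusted p under 0.05, there were 2 further mitotic genes, Nek2, a centrosome kinase, at -0.48 ± 0.21 and Incenp, the scaffold of the chromosome passenger complex, at -0.51 ± 0.22 (SE), and 1 inhibitor, Cdkn2b, at 0.46 ± 0.19 (SE). Without the 2 arrays there were 3 further mitotic genes, 2 further replication genes and 0 inhibitors, against 8.53% of clusters.

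Cdc25b read 6.61, 6.95 and 6.78 in wild type, 6.08, 6.39 and 6.27 in Foxn1 mutants and 6.18, 5.95 and 6.08 in Tbx1 mutants. All 6 mutant arrays were below all 3 wild type arrays, and the Tbx1 mutants differed from wild type by -0.72 ± 0.19 (SE; limma adjusted p = 1.00). Gadd45a, a growth arrest and DNA damage gene on the list of 18 inhibitors, read 7.99, 7.40 and 7.52 in wild type, 6.41, 6.54 and 6.79 in Foxn1 mutants and 6.88, 6.64 and 7.004 in Tbx1 mutants. It too was lower on all 6 mutant arrays, at -1.06 ± 0.23 in Foxn1 mutants and -0.80 ± 0.23 in Tbx1 mutants (SE; limma adjusted p = 1.00 in both). The wild type arrays of Gadd45a and Cdc25b did not set array 1 apart in 1 direction: array 1 was the highest of the 3 for Gadd45a and the lowest of the 3 for Cdc25b. In the Tbx1 mutants E2f2, an activator E2F, was at -1.31 ± 0.43 and Cdkn1b, the Cdk inhibitor p27, at -0.92 ± 0.33 against wild type (SE), with overlapping arrays in both.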

How the data were processed

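Total RNA of fetal thymic lobes was measured on 9 Clariom S arrays, 3 for each genotype in the labels. The values were used on the log2 scale as the authors deposited them. The software, its version, the normalization and the build of the array design are not given in the sources at hand. Of 28846 features, 6640 control features were left out, which left 22206 transcript clusters, named through the platform annotation. The number of arrays limits the precision.

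A linear model with 1 term per genotype was fitted to all clusters on the 9 arrays (limma 3.58.1, R 4.3.3; lmFit and eBayes, two-sided). Benjamini-Hochberg adjustment ran over the 22206 clusters of each comparison, with a threshold of 0.05. Genotypes were called not overlapping where every array of one lay above every array of the other. The fit was tested on simulated data. Lists of further replication and mitotic genes, G1 genes, cell cycle inhibitors and markers of cell types were described by counts and medians, with no test. The members and lists were chosen with earlier results of these data known. Named genes were the members, per comparison the 2 genes of lowest p of each further cell cycle list, the targeted genes, Prss16 and Psmb11.

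The alternatives were quantile normalization or median centring of the arrays, leaving out clusters under the 25th or 50th percentile of cluster means, robust moderation with an intensity trend, weights per array, the title code as a fixed or random block, only the arrays compared, a threshold of 0.1, the median over a symbol's clusters, leaving out the 2 arrays with Prss16 under 6, and leaving out each array in turn. Keeping 1 cluster of each set with identical values was added after seeing the data. Marker lists of endothelium, muscle and parathyroid were measured too. Their medians on wild type array 1 and Foxn1 mutant array 2 against the other arrays were 0.08 and 0.54 for endothelium, -0.23 and 1.03 for skeletal and heart muscle, and 3.17 and -0.04 for parathyroid. They were 2.29 and 0.76 for red cells, -0.58 and 1.27 for mesenchyme, 5.66 and 0.08 for neurons and glia, and -0.51 and -0.08 for the G1 genes. Promoters came from a RefSeq table (pandas 2.3.3 in Python 3.11.15), and figures were drawn with matplotlib 3.10.9.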

Additional observations from a re-analysis of the deposited data

How the results depend on the processing

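The count of members called was 0 in all 3 comparisons under every alternative run. Of 198 recomputed counts of called members and medians of the 2 groups of members, 196 moved by less than the spread between arrays or stayed within 1.5 times. The others were the medians of Foxn1 mutants minus Tbx1 mutants with the title code as a fixed block, -0.55 for replication members and -0.47 for mitotic members, against -0.04 and -0.07 without it. Code A, with Foxn1 mutant array 2 and Tbx1 mutant array 1, is the only code that holds both of these genotypes, and the cause of the shift was not tested. In the same fit Gins2 was at -0.48 (0.31 without the block), Mcm4 at -0.46 (0.04), Plk1 at -0.75 (-0.30) and Nek2 at -0.73 (-0.48), beside the genes whose sign turned above. Without the 2 Prss16-poor arrays Foxn1 mutants minus wild type was -0.50 for Rrm2 (-0.98 with them), -0.13 for Mki67 (-0.30), 0.04 for Ccne1 (0.16) and -0.70 for Cdc25b (-0.54). All 10 of these counts and medians stayed under the alternative added after seeing the data. Medians ranged over the settings from -0.21 to 0.39 (replication) and -0.27 to 0.19 (mitosis) for Foxn1 mutants minus wild type, and from -0.26 to 0.29 and -0.25 to 0.25 for Tbx1 mutants minus wild type. Over the 3 comparisons the sign of a median turned in 3 to 9 of 21 settings, so the 196 do not mean a stable sign. Called clusters over the whole array numbered 3 for Tbx1 mutants against wild type, 17 with array weights, 20 without wild type array 2, 5 without Tbx1 mutant array 1, and 0 without wild type array 3, Tbx1 mutant array 2 or Tbx1 mutant array 3. That number was 2 without the 2 Prss16-poor arrays and was taken as changed in 8 of 21 settings, not all named here. For Foxn1 mutants against wild type the count was 0, and 3 without Tbx1 mutant array 1, with 2 of 21 settings taken as changed. For Foxn1 mutants against Tbx1 mutants it was 0, with 6 of 21 settings taken as changed. It was 4 under array weights, 3 without wild type array 1, and 2 without wild type array 2 or without the 2 Prss16-poor arrays. The labels give no replicate numbers that genotypes share, so the title code served as the block. Signal over background limits E2f1, which lay under the negative-control median on wild type array 1.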
